A study of Caenorhabditis elegans with 2 samples.

Results

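The genes described here encode the proteins of the small subunit of the cytosolic ribosome in the nematode Caenorhabditis elegans, and the measurement is where tagged CEH-82, a homeodomain protein, was found on chromatin. They were taken as all protein-coding genes of the WBcel235 annotation whose name starts with rps-, which gave 31 of the 19973 protein-coding genes on the nuclear chromosomes. The rule uses the name alone. A gene was counted as having a peak when the summit, the position of highest signal within a peak, lay from 1000 bp upstream to 200 bp downstream of one of its annotated transcript starts.

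Chromatin bound to the tagged protein was sequenced after immunoprecipitation (ChIP-seq). The animals were whole first-stage larvae of mixed sex, from the strain OP212, which carries the mutation unc-119(ed3) on chromosome III and the extrachromosomal array ddEx58. The array supplies ceh-82, also named F45C12.2, with GFP-FLAG at the C-terminus of the protein, so both libraries come from 1 transgenic line. The single group held 2 biological replicates of sonicated chromatin, there was no second genotype or treatment, and no control library was analysed here. Whole animals were used and peak lists hold no transcript levels, so the tissues that contributed could not be checked against markers.

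The relaxed list of replicate 1 held 16551 entries, and those of replicate 2 and of the pooled reads held 30000 each, so a given rank sits at a different place in the lists of the replicates. The thresholded list, which the authors kept for reproducibility between replicates, held 2052 peaks with a median signal of 39.8 (lowest 22.3, highest 406). Signal is the score the authors gave each peak. Its scale differs between lists, so it was compared within 1 list, except where the replicates are set against each other peak by peak. The sources used here do not give read depth. The intervals below treat the genes or windows as a random sample and do not cover the error of the ChIP-seq measurement. All coordinates are on ce11, which is WBcel235, counted from 1.

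Each ribosome carries 1 copy of nearly every ribosomal protein, and cells make these proteins in matched amounts, which in larvae that grow quickly takes a large share of all transcription. The small subunit binds the messenger RNA and reads its codons, while the large subunit forms the peptide bonds. Many C. elegans messenger RNAs receive a short leader by trans-splicing, and the annotated start of such a gene is then the splice acceptor, which can lie well downstream of the point where transcription begins. Acceptors read CAG at their end, and the genome had CAG directly before the outermost annotated start at 25 of the 31 genes (80.6%), against 22.1% of all protein-coding genes and 39.6% of the genes with a thresholded peak. The 6 without it were rps-0, rps-14, rps-22, rps-23, rps-24 and rps-27. Distances below are from annotated starts. The annotated start lay a median of 11 bp before the start codon at the 31 genes, and 15 bp at all genes.

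The sequences under the summits are printed for some of the strongest of these peaks. The 100 bases around the summit are given for 6 of the 10 strongest and, last, for rps-8, the weakest gene in the thresholded list. Each is read on the strand of the gene. The 6 are not the first by signal, because the windows of rps-19, rps-20, rps-15 and rps-26 are not printed. Capitals mark words of 8 letters that recur in at least 5 of the 27 summit windows of small-subunit genes, on either strand. The words were searched for after the peaks were known. The rps-12 and rps-28 windows hold none of them, so no such word is common to the 6. The windows of rps-15 and rps-26 also hold none. The windows, from the RefSeq WBcel235 sequence, are chrIII:4475608-4475707 (plus strand) for rps-1, chrIII:5679080-5679179 (plus strand) for rps-12, chrIV:1659191-1659290 (plus strand) for rps-28, chrIII:4754315-4754414 (minus strand) for rps-0, chrIV:12391281-12391380 (minus strand) for rps-23, chrIII:7179800-7179899 (minus strand) for rps-14 and chrIV:7314102-7314201 (minus strand) for rps-8. None of them overlaps a protein-coding exon.
rps-1: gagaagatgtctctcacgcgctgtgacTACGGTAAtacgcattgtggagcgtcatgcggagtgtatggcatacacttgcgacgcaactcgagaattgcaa
rps-12: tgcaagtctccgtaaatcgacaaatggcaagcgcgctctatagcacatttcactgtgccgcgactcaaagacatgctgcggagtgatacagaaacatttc
rps-28: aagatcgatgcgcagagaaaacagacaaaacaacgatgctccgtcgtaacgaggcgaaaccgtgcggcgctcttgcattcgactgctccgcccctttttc
rps-0: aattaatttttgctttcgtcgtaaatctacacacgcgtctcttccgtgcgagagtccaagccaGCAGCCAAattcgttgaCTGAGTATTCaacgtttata
rps-23: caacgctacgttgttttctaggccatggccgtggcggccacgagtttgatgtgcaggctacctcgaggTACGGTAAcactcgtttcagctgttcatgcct
rps-14: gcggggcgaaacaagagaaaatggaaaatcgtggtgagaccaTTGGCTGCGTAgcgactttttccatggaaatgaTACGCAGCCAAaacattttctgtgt
rps-8: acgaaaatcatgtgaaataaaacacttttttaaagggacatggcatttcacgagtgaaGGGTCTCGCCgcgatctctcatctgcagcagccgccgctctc

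The recurrent words fell into 5 families of overlapping letters, and the next 4 windows hold words of 2 or 3 families each. They were chosen for that after the sequences were seen. The windows are chrV:7776279-7776378 (plus strand) for rps-30, chrIV:385541-385640 (plus strand) for rps-24, chrIII:1950367-1950466 (plus strand) for rps-22 and chrIII:7189871-7189970 (minus strand) for rps-21.
rps-30: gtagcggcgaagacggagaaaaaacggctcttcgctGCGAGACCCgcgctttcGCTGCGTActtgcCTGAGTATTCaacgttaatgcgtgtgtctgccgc
rps-24: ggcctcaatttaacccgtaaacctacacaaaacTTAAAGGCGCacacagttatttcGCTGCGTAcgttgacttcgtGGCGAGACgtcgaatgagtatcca
rps-22: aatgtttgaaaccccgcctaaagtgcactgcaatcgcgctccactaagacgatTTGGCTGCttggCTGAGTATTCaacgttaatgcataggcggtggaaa
rps-21: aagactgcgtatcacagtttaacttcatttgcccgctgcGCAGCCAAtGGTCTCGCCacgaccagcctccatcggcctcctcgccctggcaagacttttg

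The next lines give the 300 bases that end at the annotated start of 2 genes with no thresholded peak. They are chrIV:7926392-7926691 (minus strand) for rps-2 and chrIV:14825379-14825678 (plus strand) for rps-18. These runs are longer than the summit windows and are placed by the start, so the 2 kinds of window are not matched. Both runs end in cag, and capitals mark a word of the same families. The rps-2 run holds 1 such word near its upstream end, and the rps-18 run holds none. The words of rps-18 began farther upstream, at 447 and 653 bp before its start.
rps-2: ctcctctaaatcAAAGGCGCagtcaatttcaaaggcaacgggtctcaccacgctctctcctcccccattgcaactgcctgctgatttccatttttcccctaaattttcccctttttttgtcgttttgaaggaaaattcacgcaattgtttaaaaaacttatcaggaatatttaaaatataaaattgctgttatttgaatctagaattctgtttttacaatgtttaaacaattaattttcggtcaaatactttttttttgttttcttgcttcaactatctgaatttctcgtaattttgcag
rps-18: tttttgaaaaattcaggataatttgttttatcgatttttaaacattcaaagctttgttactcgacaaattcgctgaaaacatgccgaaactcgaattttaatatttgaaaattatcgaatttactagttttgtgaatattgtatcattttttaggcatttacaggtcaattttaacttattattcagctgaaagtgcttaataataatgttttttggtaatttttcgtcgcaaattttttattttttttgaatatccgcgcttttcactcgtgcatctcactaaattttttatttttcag

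A thresholded peak lay in the promoter window of 27 of the 31 genes (87.1%, 95% Wilson interval 71.1 to 94.9). The same window held one at 9.91% of all protein-coding genes. The 4 genes without were rps-2, rps-7, rps-16 and rps-18. In the pooled relaxed list, which the authors describe as peaks and background, all 31 genes had a summit, beside 43.4% of all genes. No test of the list was made, and these shares are a description.

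The genes with a peak were spread over the autosomes. Peaks were found at all 9 genes on chromosome III, the 1 on chromosome II, 8 of 10 on chromosome IV, 7 of 8 on chromosome I and 2 of 3 on chromosome V. The X chromosome carries none of the 31. The 27 genes had 27 distinct peaks, so no peak was counted for 2 small-subunit genes. Only rps-24 had a second thresholded summit in its window, 660 bp upstream with a signal of 27.3, beside its stronger one at 73.8. All 27 summits lay outside protein-coding genes, and no thresholded summit lay inside the body of any of the 31 genes. Noncoding genes were not considered in that count, and the share over all promoter peaks is not given here.

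Signal at the 27 peaks ran from 23.6 to 295 with a median of 66.7 (95% interval from order statistics 48.4 to 111). The median was 74.1 at the 38 large-subunit (rpl-) genes with a peak and 45.1 over all 1980 genes with one. Of the 27, 23 (85.2%) were above the median of the thresholded list, against 57.3% of all genes with a peak, and 6 (22.2%) were among its 100 strongest peaks, against 6.41%. The median rank, counted from the strongest, was 438 of 2052 (range 8 to 1919), and 854.5 over all genes with a peak.

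**Figure D1:**
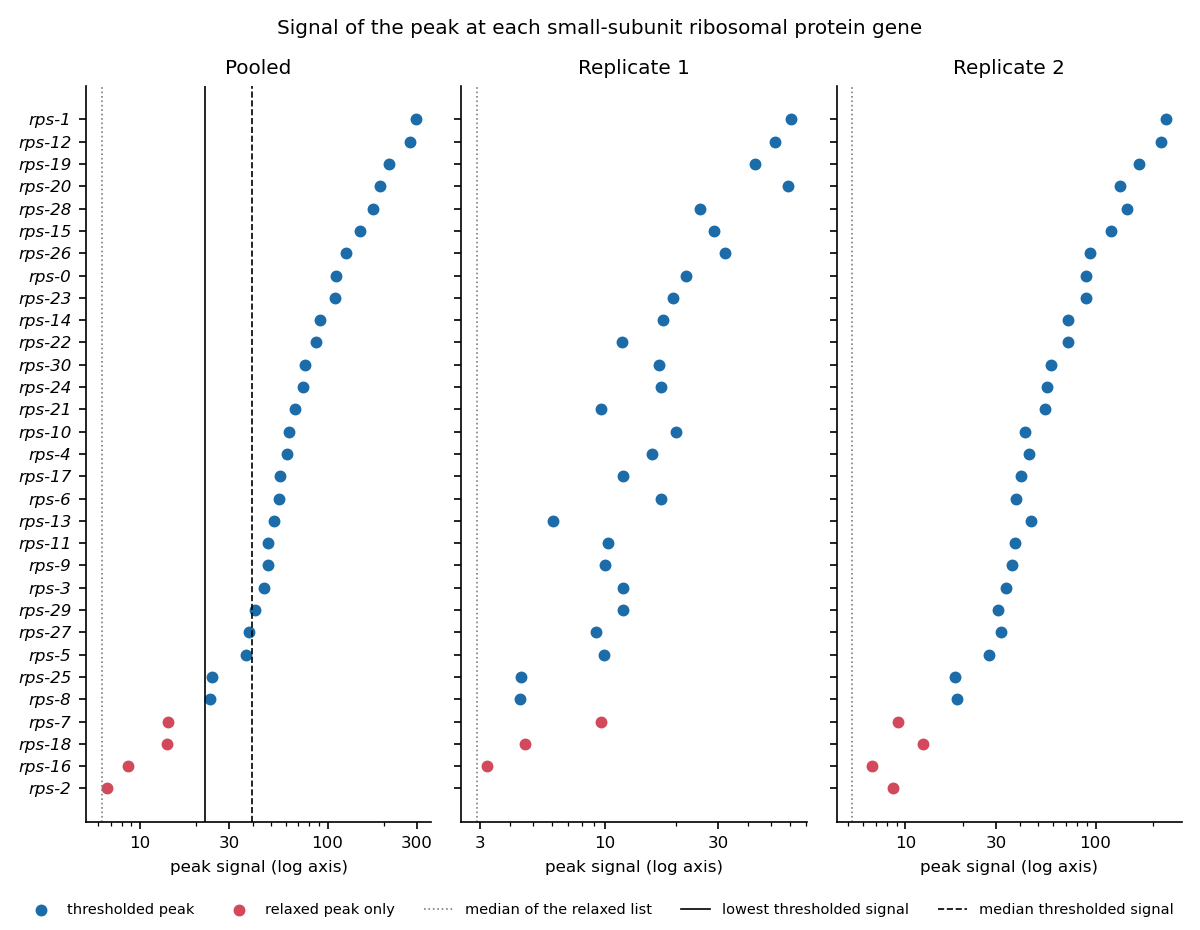
Signal of the peak at each of the 31 genes in the pooled list and in each replicate, on log axes, with 1 point a gene and genes ordered by pooled signal. The 27 thresholded peaks lie between 23.6 and 295 in the pooled panel, the 4 relaxed ones between 6.67 and 14.1, and rps-2 has no point in replicate 1.

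The strongest peak belonged to rps-1 (WBGene00004470, chromosome III, 4475918 to 4476876, plus strand), whose protein is part of the platform of the small subunit. Its summit at 4475658 lay 260 bp upstream with a pooled signal of 295, rank 8 of the list. Signal was 60.7 in replicate 1 and 236 in replicate 2, at ranks 10 and 8. The divergent neighbour ifet-1, whose product represses translation through the cap-binding factor, starts 508 bp from the same summit, so the peak was nearer to rps-1.

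Next came rps-12 (WBGene00004481, chromosome III, 5679298 to 5680187, plus strand), with a summit 168 bp upstream and a pooled signal of 276, rank 9. The replicates gave 52.0 and 221, at ranks 15 and 9. Its gap to the neighbour ska-3, a kinetochore gene, is only 292 bp, and the summit was nearer to ska-3 at 125 bp. The peak can be counted for either gene.

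A pair on chromosome I followed. The peak of rps-19 (WBGene00004488, 9625049 to 9625796, minus strand), whose human counterpart is mutated in Diamond-Blackfan anaemia, had a pooled signal of 211 (rank 18) 281 bp upstream, with 42.9 and 169 in the replicates (ranks 25 and 19). The peak of rps-20 (WBGene00004489, 14468332 to 14469103, minus strand) had 189.8 (rank 23) 249 bp upstream, with 59.0 and 135 in the replicates (ranks 11 and 33). Both summits were nearer to the divergent partner, at 164 bp from hsr-9 and 148 bp from ekl-4. These 4 strongest peaks ranked within the first 33 of each replicate.

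The peak of rps-28 (WBGene00004497, chromosome IV, 1659691 to 1659997, plus strand) was the strongest without a close neighbour. Its pooled signal was 175 (rank 33), 450 bp upstream, with 25.2 in replicate 1 (rank 133) and 146 in replicate 2 (rank 24). The only other protein-coding start within reach was that of Y41D4B.4, 869 bp away, and the gene next upstream lies 14392 bp off. It ranked lower in replicate 1 than the peaks of rps-15 and rps-26, which were below it in the pooled list.

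For rps-15 (WBGene00004484, chromosome I, 8815572 to 8816193, minus strand) the pooled signal was 149.5 (rank 62), 379 bp upstream and 402 bp from F36A2.9, with 28.8 and 121 in the replicates (ranks 100 and 58). For rps-26 (WBGene00004495, chromosome I, 14759930 to 14760626, plus strand), whose protein lines the channel where messenger RNA leaves, it was 125 (rank 101), with 31.9 and 93.7 (ranks 73 and 112). The rps-26 summit lay 409 bp upstream but only 48 bp from tmem-107, a gene of the ciliary transition zone, and within 200 bp of the small nucleolar RNA gene F39B2.14. No other member with a peak had a small nucleolar RNA gene that near, and 8 had a noncoding gene of any annotated class. The shares over all promoter peaks are not given here.

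The remaining peaks of the 10 strongest were those of rps-0, rps-23 and rps-14. The gene rps-0 (WBGene00004469, chromosome III, 4753007 to 4754051, minus strand), homologous to the mammalian laminin receptor gene RPSA, had 111 (rank 138), 314 bp upstream and 59 bp from rbg-3, with 22 and 89.0 in the replicates (ranks 209 and 128). The gene rps-23 (WBGene00004492, chromosome IV, 12390298 to 12391053, minus strand), whose protein reaches the decoding centre, had 109 (rank 145), 278 bp upstream and 256 bp from dpm-3, with 19.3 and 89.6 (ranks 296 and 124). The gene rps-14 (WBGene00004483, chromosome III, 7178991 to 7179588, minus strand) had 90.98 (rank 218), 262 bp upstream, with 17.6 and 71.7 (ranks 352 and 212). Of these 10, all but rps-28 had a divergent neighbour whose start shared the peak.

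At 3 places a single peak lay between divergent genes for proteins of both subunits. The rps-14 summit lay 401 bp from rpl-36 and 902 bp from ndab-2. The rps-30 summit, with a signal of 75.9 (rank 329), lay 249 bp from rps-30 and 250 bp from rpl-39, almost at the middle of their 498 bp gap, and 971 bp from C26F1.3. The replicates gave 16.9 and 58.03, at ranks 412 and 337. In humans the protein of the rps-30 counterpart is made as a fusion with a ubiquitin-like protein. The rps-10 summit, with a signal of 62.7 (rank 494), lay 373 bp from rps-10 and 237 bp from rpl-24.1. The replicates gave 20.01 and 42.7, at ranks 271 and 616, and the piRNA gene 21ur-11631 lay within 200 bp. Only at rps-10 was the large-subunit gene the nearer.

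The other 15 peaks had pooled signals from 23.6 to 86.6. The highest was rps-22 (118 bp upstream, shared with polh-1, a translesion DNA polymerase gene), then rps-24 at 73.8. At rps-21 (WBGene00004490, chromosome III, 7189178 to 7189631, minus strand) the summit lay 290 bp upstream, within 200 bp of the piRNA genes 21ur-10581 and 21ur-7304, with a signal of 66.7 (rank 438). The replicates gave 9.62 and 54.1, at ranks 1027 and 392. Signals from 46.0 to 60.8 belonged to rps-4, rps-17, rps-6, rps-13, rps-11, rps-9 and rps-3. The protein of rps-6 is the classic substrate of the S6 kinase downstream of TOR, and its peak, at 55.2, lay 309 bp upstream and 222 bp from usp-3. Below these came rps-29 (41.2), rps-27 (37.9) and rps-5 (36.9), and then rps-25 (24.2) and rps-8 (23.6), which were close to the lowest signal kept in the list, 22.3.

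The 4 genes without a thresholded peak differed in what the relaxed lists held. At rps-7 the pooled relaxed summit lay 281 bp upstream with a signal of 14.1, rank 3223 of 30000, and a -log10 q of 3.33, where thresholded peaks are at 3.81. It ranked 1024 of 16551 in replicate 1, with a signal of 9.63, but 4368 of 30000 in replicate 2, with 9.14. The matched summit was 17 bp from the pooled one in replicate 1 but 160 bp from it in replicate 2. The distance of the pooled rps-7 summit and its replicate 1 rank were within the range of the 27 genes with a peak, and its replicate 2 rank was not. The next thresholded summit was 2323 bp downstream, at ZC434.4.

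At rps-18, whose upstream neighbour is the translocon gene sec-61.A, the stronger of 2 relaxed summits had a signal of 13.9 (rank 3265, -log10 q of 3.12) and lay 641 bp upstream, inside an exon of sec-61.A. It ranked 3050 and 2911 in the replicates, with 4.63 and 12.4. The matched replicate 1 summit was at -128 bp from the pooled one (negative upstream). The second pooled relaxed summit, 428 bp upstream of rps-18, had a signal of 7.56. At rps-16 the relaxed summit lay 26 bp upstream with 8.59 (rank 7140, -log10 q of 0.975, replicate ranks 6795 and 8428, with 3.19 and 6.69). The matched replicate 2 summit was 72 bp from the pooled one. The gene next upstream, fib-1 for the nucleolar protein fibrillarin, is on the same strand and ends 109 bp before rps-16. A thresholded peak with a signal of 85.3 lay 1751 bp upstream of rps-16, in the windows of fib-1 and mut-15.

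At rps-2 the relaxed summit lay 61 bp downstream of the start, in an exon, with 6.67 (rank 12938, -log10 q of 0.415). Replicate 1 had no overlapping entry, and replicate 2 had one at rank 4887 with 8.60. The nearest thresholded summit was 20685 bp upstream. The median of all pooled relaxed entries was 6.26, so the signals at rps-7 and rps-18 stood farther above it than those at rps-16 and rps-2.

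Summits sat at a common distance. The median of the 27 was 292 bp upstream of the start (95% interval from order statistics 260 to 353, interquartile range 255.5 to 362.5, range 118 to 606). All 27 were upstream, as were 96.7% of summits over all genes with a peak. In a range of 200 to 450 bp upstream, chosen after the values were seen, lay 22 of 27 (81.5%), beside 84.2% for large-subunit genes and 34.3% for all genes with a peak, whose median was 222 bp. Outside it were rps-12, rps-13 and rps-22, which were closer, and rps-27 and rps-29, which were farther and lay 142 and 44 bp from the divergent neighbours picd-1 and snt-2.

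**Figure D2:**
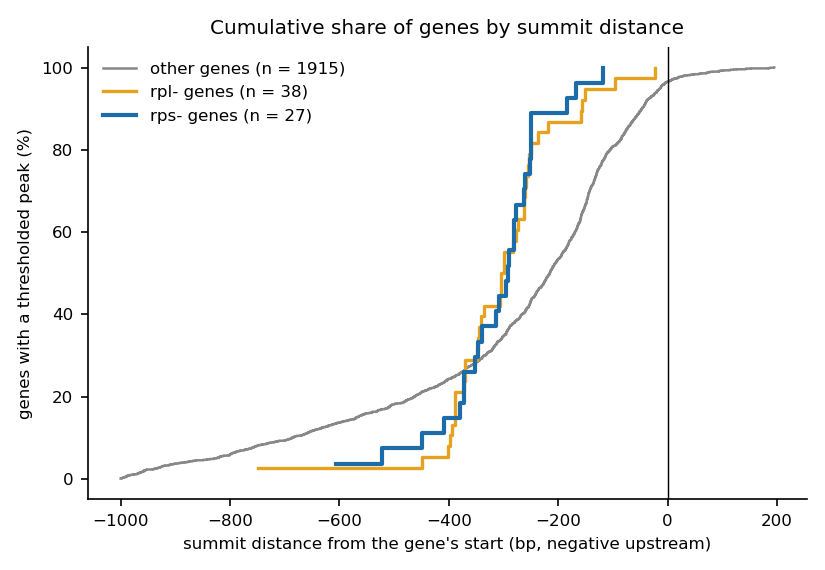
Cumulative share of genes with a thresholded peak (vertical axis, %) by the distance of the summit from the start of the gene (horizontal axis, bp), for 27 rps- genes, 38 rpl- genes and 1915 others. The rps- and rpl- curves rise together and steeply between 450 and 200 bp upstream, where they hold 81.5% and 84.2% of genes.

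Of the 27 peaks, 19 lay in the window of at least 1 further protein-coding gene and 8 in that of the small-subunit gene alone. The share with a further gene was 70.4%, beside 68.4% for large-subunit genes and 57.1% for all genes with a peak. The lone ones were rps-4, rps-5, rps-8, rps-11, rps-17, rps-21, rps-24 and rps-25. These are 25.8% of the 31, against 4.29% of all genes, but 29.6% of the 27 with a peak, against 43.2% of all genes with a peak. Signal at these 8 ran from 23.6 to 73.8 with a median of 52.0, and at the 19 shared peaks from 37.9 to 295 with a median of 90.98. Counted for the nearest protein-coding start alone, 16 of 31 genes kept a peak (51.6%, against 7.0% of all genes). Among genes with a peak these were 59.3%, against 70.6% of all such genes, and neither difference was tested.

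Most of the strongest small-subunit peaks lay between divergent genes. The upstream neighbour was divergent at 22 of the 31 genes (71.0%, against 46.2% of all genes and 69.8% of all genes with a peak), and 21 of those 22 had a thresholded peak, with a median signal of 86.6. With the neighbour on the same strand, 6 of 9 had one, with a median of 52.0. Over all protein-coding genes, 14.98% of divergent and 5.56% of same-strand starts had one, with median signals of 46.5 and 39.4. In 18 divergent pairs the partner's start shared the peak, across gaps of 265 to 780 bp (median 531.5). The summit was nearer to the small-subunit gene in 7 pairs and nearer to the partner in 11. Over all 18 pairs its median distance was 279.5 bp from the small-subunit start and 210 bp from the partner's start. The large-subunit genes had peaks at 26 of 32 divergent and 12 of 15 same-strand starts. Their median signals, 75.4 and 71.4, were close to each other, and their strongest peak, at 406, had a same-strand neighbour. The difference in signal by orientation was not tested. Whether a shared peak reflects one or both genes was not tested.

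**Figure D3:**
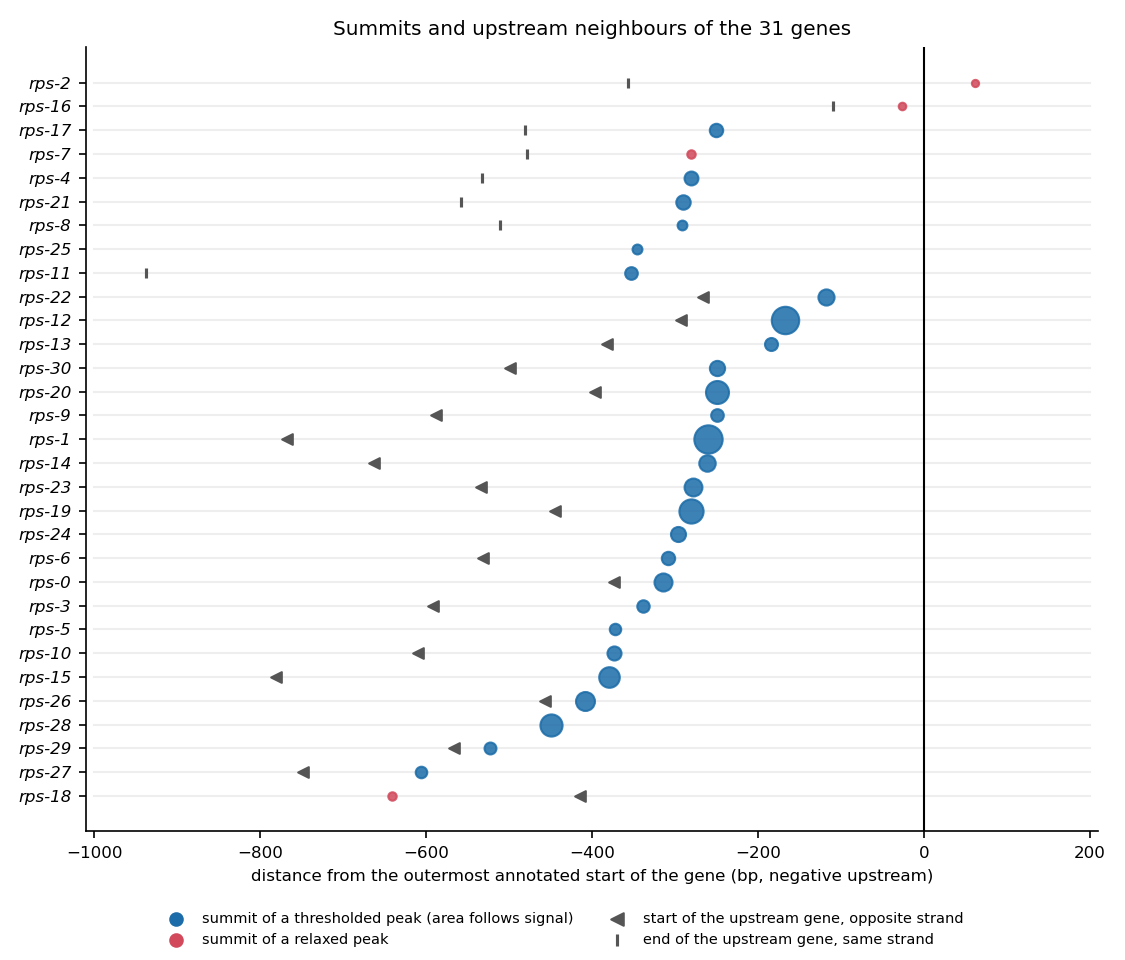
Position of the strongest summit at each of the 31 genes (horizontal axis, bp from the outermost annotated start, negative upstream), with the start of a divergent upstream neighbour or the end of a same-strand one where it is within 1000 bp. Blue points are thresholded peaks, with area following signal, and red points are relaxed peaks. Most blue points fall from 450 to 200 bp upstream, often between 2 divergent starts.

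Every one of the 27 peaks overlapped a relaxed peak in both replicates, as did 94.6% of all thresholded promoter peaks, a list kept for reproducibility. Ranks ran from 10 to 3322 in replicate 1 (median 412) and from 8 to 1938 in replicate 2 (median 392). In replicate 1, 26 of the 31 genes had a summit among its 2052 strongest entries, against 9.14% of all genes, and the missing ones were rps-2, rps-8, rps-16, rps-18 and rps-25. In replicate 2, 27 had one, against 9.86% of all genes, and those missing were the 4 without a thresholded peak. Thus rps-7 would count with replicate 1 alone, and rps-8 and rps-25, at ranks 3322 and 3279 there, would not.

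Of the 27 peaks, 25 (92.6%) were among the 2052 strongest of both replicates, against 71.0% of all 1439 thresholded promoter peaks. The sets were not matched for signal, and 85.2% of the 27 peaks were above the median signal of the thresholded list. Spearman's correlation of the ranks was 0.85 across the 27 peaks and 0.66 across 1361 promoter peaks matched in both, as a description of the same 2 libraries. Signal was higher in replicate 2 by a median of 3.67-fold (range 2.14 to 7.55), close to the 3.54-fold of all promoter peaks, and the scale of the lists differs. The 7.55-fold was that of rps-13, at rank 1907 in replicate 1 and 552 in replicate 2. Summits of the replicates were a median of 10 bp apart (at most 52), and 15 bp for all promoter peaks.

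**Figure D4:**
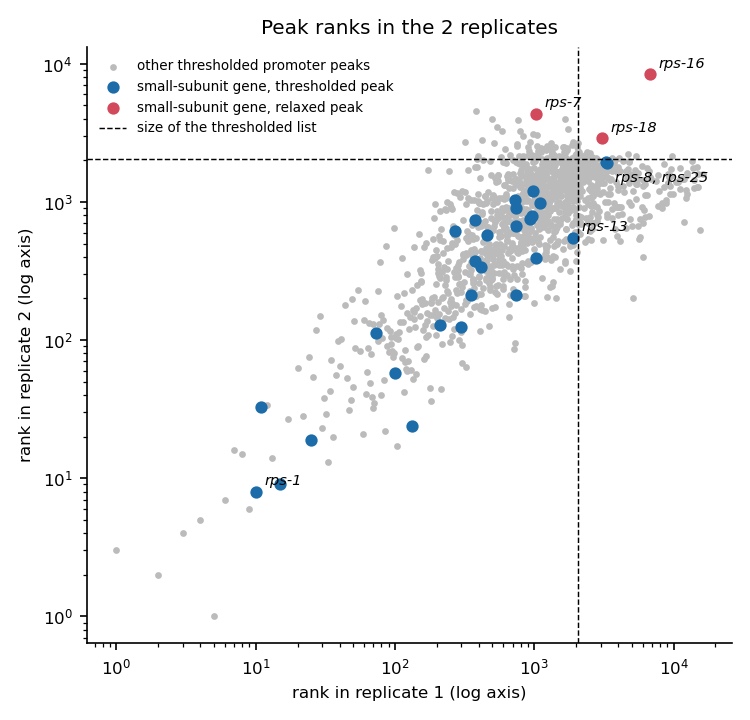
Rank of each thresholded promoter peak in the relaxed list of replicate 1 (horizontal) and of replicate 2 (vertical), on log axes where 1 is the strongest, with dashed lines at 2052. Of the 27 small-subunit peaks (blue), 25 lie left of the vertical line and below the horizontal one. The relaxed peaks of rps-7, rps-16 and rps-18 (red) lie above the replicate 2 line, and rps-2 is not plotted.

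The summit windows were rich in G and C, with a median of 52% over the 27 windows of 100 bp (range 42 to 61). The median was 50% at 35 large-subunit windows, 48% at all promoter peaks, and 34% in windows of all genes from 342 to 242 bp upstream. The homeodomain core TAAT, read on both strands, was in 8 of 27 windows (29.6%, Wilson interval 15.9 to 48.5), against 33.1% of promoter peaks and 67.8% of the windows of all genes. The palindrome TAATTA, which contains it, was in 0 of 27 (upper bound of the interval 12.5%) and 1.53% of promoter peaks.

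Another 12 motifs were counted the same way. CGTCTC was in 4 windows (14.8% against 19.5% of promoter peaks) and CTGCGTCTC, which contains it, in 2 (7.41% against 10.6%). CCGCCC was in 2 (7.41% against 6.46%), CACGTG in 1 (3.70% against 3.20%) and TATAAA in 1 (3.70% against 2.99%). None of the windows held GCGCGAAA, GAGAGAGA, TTTTTTTT or AAGATGGC, which were in 2.71, 4.45, 4.73 and 0.278% of promoter peaks. Nor did any hold TGATAA (1.88% of promoter peaks), and the same was so for CCGGAAG (0.208%) and for TGAGTCA (0.834%). A match is a run of letters, not a site.

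The recurrent words were shared with large-subunit genes. A word of any of the 5 families was in 21 of 27 windows (77.8%). Because the words were picked from these windows, that share has no independent weight. The 35 large-subunit windows, which did not enter the choice, held one in 27 (77.1%), the 1377 promoter peaks of no ribosomal protein gene in 149 (10.8%), and the windows of all genes in 3.16%. Words of 1 family were in 10 windows, of 2 families in 9 and of 3 families in 2, those of rps-24 and rps-30.

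The first family, GCAGCCAA and GCTGCGTA, was in 9 small-subunit windows (33.3%) but in 2 of 35 large-subunit windows (5.71%) and 1.38% of non-ribosomal promoter peaks. The words overlap on opposite strands, and the rps-14 window above holds both as 1 run at 2 places. The second, GCGAGACC, CGAGACCC and GGCGAGAC, was in 9 windows (33.3%), 15 of 35 large-subunit windows (42.9%) and 5.52% of non-ribosomal ones. It was in 5 of the 6 windows with a same-strand neighbour, each time reading as the reverse complement on the gene's strand, as in the rps-8 and rps-21 lines, and in 4 of 21 with a divergent neighbour, in 2 of them so. That contrast was not tested, and the words were picked from these windows.

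The third family, AAAGGCGC and GCCTTTAA, was in 6 windows (22.2%), 28.6% of large-subunit windows and 3.20% of non-ribosomal ones. The fourth, AATACTCA, ATACTCAG and GAATACTC, was in 5 (18.5%), 17.1% and 0.581%. Its genes were rps-0, rps-3, rps-20, rps-22 and rps-30, and it read as the reverse complement at each, 15 to 43 bp downstream of the summit. They are 5 of the 21 with a divergent neighbour, beside 0 of the 6 with a same-strand one, a difference that was not tested. The fifth, TACGGTAA, was in 5 windows (18.5%), 17.1% and 2.11%.

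Some shared runs were longer than a word. The run that starts at the capitals of the rps-23 line was identical over 17 bases at rps-10 and rps-13, on the one strand or the other. It was in 3 of 35 large-subunit windows and 2 of 1377 non-ribosomal ones. The run that starts at the fourth-family capitals was identical over 16 bases in the rps-0, rps-22 and rps-30 lines, and was found in 2 large-subunit windows and 1 non-ribosomal window. These runs were also picked from the windows they describe.

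**Figure D5:**
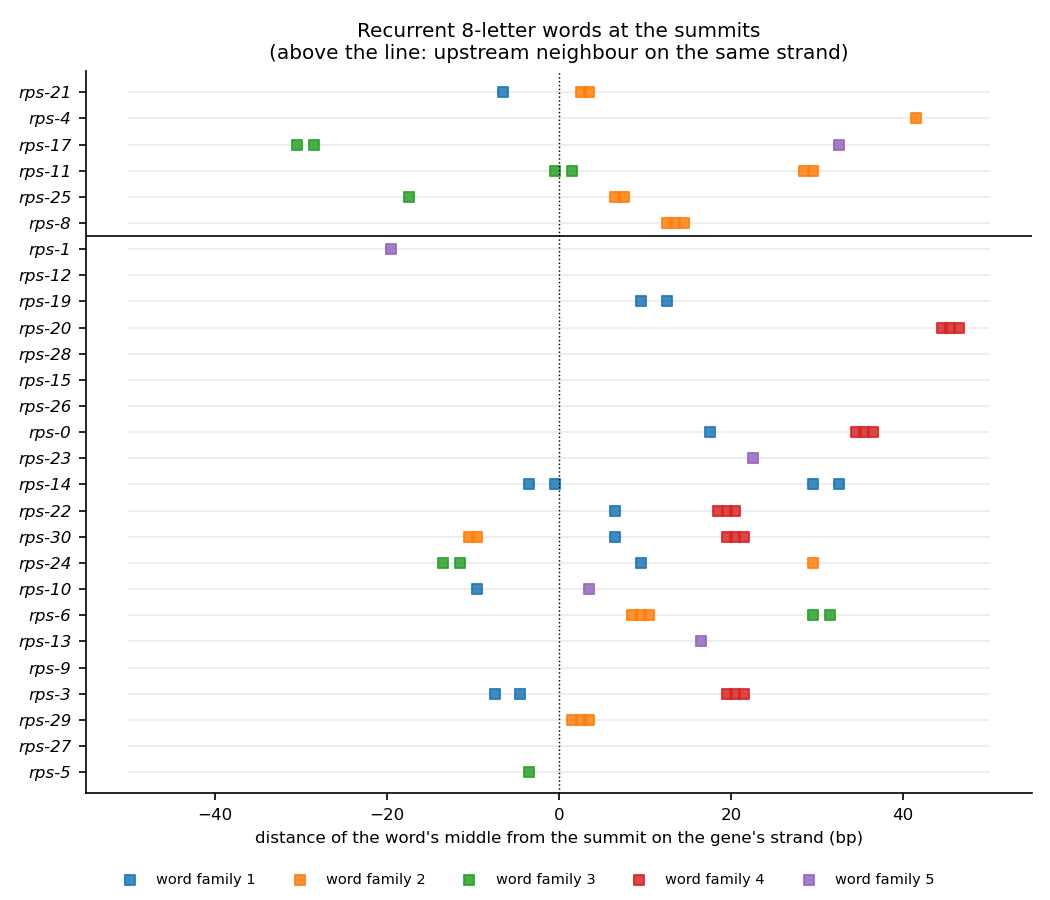
Place of each recurrent word in the summit windows of the 27 genes (horizontal axis, bp from the summit on the gene's strand), coloured by family, with genes with a same-strand neighbour above the line. Family 2 is in 5 of 6 windows above the line and 4 of 21 below it, family 4 in 0 of 6 and 5 of 21, and 6 genes have no word.

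Some of the strongest peaks had none of the words. The 6 genes with no word were rps-9, rps-12, rps-15, rps-26, rps-27 and rps-28, and 4 of them were among the 10 strongest. Their signals ran from 37.9 to 276 with a median of 137, and those of the 21 with a word from 23.6 to 295 with a median of 62.7. The genes without a thresholded peak also had words upstream. A second-family word began 275 bp before the start of rps-7, near its relaxed summit, and third-family words began 299 bp before rps-7, 288 bp before rps-2 and 447 bp before rps-18, where a fifth-family word began at 653 bp. At rps-16 the nearest was a fourth-family word at 956 bp. Within 1000 bp upstream, 25 of the 31 genes (80.6%) and 22.7% of all genes held a word. At 21 of these 25 a word was already in the summit window. The words were picked from those windows, so the 80.6% has no independent weight.

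Other genes of the ribosome and of translation give the setting. Thresholded peaks were at 38 of 47 large-subunit genes (80.9%), with a median signal of 74.1, led by rpl-3 (406), rpl-15 (399) and rpl-20 (357). The 3 acidic stalk genes (rla-) had none. The genes ubl-1 and ubq-2 encode ubiquitin or a ubiquitin-like protein joined to a ribosomal protein, and rack-1 encodes a scaffold on the small subunit. Their names do not start with rps-, so the rule leaves them out. Of these 3, ubq-2 (100.4) and ubl-1 (92.8) had a peak. The mitochondrial ribosome differed, with 7 of 29 small-subunit genes (24.1%, led by mrps-7 at 125, mrps-21 at 72.6 and mrps-35 at 68.2) and 12 of 41 large-subunit genes (29.3%, led by mrpl-28 at 121, mrpl-49 at 104.5, whose peak is shared with rpl-28, and mrpl-45 at 97.2).

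Initiation factors (eif-) had a peak at 13 of 25 (52%), led by the eIF3 subunit genes eif-3.C (178), eif-3.B (77.4) and eif-3.E (73.98). The eif-3.E peak also lay in the window of B0511.17. Of 22 ribosome assembly genes found by name, 8 had one (36.4%), led by rbd-1 (107), fib-1 (85.3) and lpd-7 (67.0). The peaks of rbd-1, fib-1 and lpd-7 were shared with T23F6.3, mut-15 and rpl-9 in that order. Of 10 genes listed here for the TOR pathway, which promotes ribosome synthesis, 3 had one (30%), at rheb-1 (62.1), rict-1 (48.1) and ifg-1 (22.98). All 3 peaks also lay in the window of another gene, spk-1, gfm-1 and M110.3 in that order. The summits in the windows of rict-1 and ifg-1 were nearer to gfm-1 and M110.3. The percentages given for each list stand beside 9.91% over all protein-coding genes.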

How the data were processed

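Peaks of tagged CEH-82 came from 2 replicate ChIP-seq libraries. The authors aligned reads to ce11 and deposited relaxed lists, 1 for each replicate and 1 for the pooled reads, per the file headers. Their thresholded list derives from these through the irreproducible discovery rate. The aligner, the peak caller and the threshold were not given in the sources used. The deposited signal is the authors' score for a peak, and the deposited -log10 q value was used only to describe relaxed peaks. The lists on the older build were not used.

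Summits were placed against all annotated transcript starts of protein-coding genes (Ensembl release 115), and the strongest peak in the window was taken for each gene. Replicate peaks were matched by an overlap of at least 1 bp. Sequences came from the RefSeq WBcel235 genome. Intervals are Wilson intervals for shares and exact order-statistic intervals for medians, at 95%. No significance test was made. Alternatives changed the window, the starts, the rule for shared peaks, the threshold, the replicates and the motif window. The assignment code was checked on simulated peaks, planted at known distances from the outermost start of randomly picked genes. With outermost starts only, 115 of 115 peaks planted inside windows were recovered and 0 of 85 outside were assigned. The picks came from 19973 genes. The rule with all annotated starts was not checked in this way.

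The members and lists were chosen with earlier results of these data known. Full values are given for the 10 strongest members, those without a thresholded peak, and those sharing a peak with a ribosomal or small noncoding RNA gene, and the 3 strongest genes of each context list are named. The recurrent words, the range of distances and the 4 printed windows with words of 2 or 3 families were chosen after the data were seen. Those 4 hold both windows with 3 families and 2 of the 9 with 2. The scripts ran under Python 3.11.15, with pandas 2.3.3, NumPy 2.4.6, SciPy 1.17.1 and, for plots, matplotlib 3.10.9.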

Additional observations from a re-analysis of the deposited data

How the results depend on the processing

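The count of 27 genes with a thresholded peak fell to 8 when only peaks in the window of a single protein-coding gene were counted, and to 16 when each peak was given to the nearest protein-coding start. It was also 16 under a rule added after seeing the data, with the own start nearest and at most 500 bp away. Under the other rules it was 23 to 28. With 1 replicate left out, the 2052 strongest entries in the relaxed list of the other replicate stood in for the thresholded list. The count was then 26 to 27, the median distance -291 to -284 bp and the median rank in that relaxed list 392 to 393.5. Median signal, distance and rank stayed within their intervals under every rule run. Those intervals describe the spread over genes, are wide (138 to 751 for rank) and hold no measurement error. The share of windows with TAAT was 11.1% in 60 bp and 55.6% in 200 bp windows, beside 14.8% and 68.2% of promoter peaks. TATAAA was at 0% in 60 bp windows, beside 0.764% of promoter peaks. The T tract was at 22.2% in 200 bp windows, beside 15.01% of promoter peaks. No paired analysis was possible because there was 1 group. With 2 replicates, 1 line, no control analysed here and no read depth, neither binding outside the lists nor the error of a single signal can be given.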
